A study of Mus musculus with 6 samples.

Results

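The genes described here are those of cardiac calcium handling, the pacemaker current, the main cardiac gap junction and the natriuretic peptides: Nppa, Nppb, Ryr2, Pln, Atp2a2, Cacna1c, Slc8a1, Casq2, Hcn4 and Gja1. They were taken by name, through every probe set (the group of short probes that reads 1 transcript on an Affymetrix array) whose platform annotation names 1 of them and no other gene. Of the 10 genes, 9 were measured by 26 of 34945 single-gene probe sets, and Hcn4 was not analysed here. The 9 genes stand among 18193 genes measured in this way. Expression was compared between 3 mutant and 3 wild-type arrays of cells sorted from mouse embryos at embryonic day 9. Mutant embryos carried Isl1-cre, the Rosa-YFP reporter and a β-catenin allele with loxP sites around exon 3, so that Cre acting where Isl1 is or was expressed leaves a stabilised β-catenin, the protein that carries the canonical Wnt signal to its target genes. The other group is labelled wild type, its cells were sorted by the same YFP signal, and its alleles are not spelled out further. The design text speaks of at least 3 independent experiments but the labels do not give the number of embryos behind an array, so a p-value here speaks for the spread among these 6 arrays only. The Isl1-cre domain is wider than the heart, and YFP is the only sort marker named, so each array averages over several cell types.

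In a beating heart cell, calcium enters through the L-type channel (Cacna1c encodes its pore) and opens the ryanodine receptor (Ryr2), which releases calcium held in the sarcoplasmic reticulum by calsequestrin (Casq2). The pump SERCA2 (Atp2a2), which phospholamban (Pln) restrains, takes calcium back up, and the sodium-calcium exchanger (Slc8a1) expels it. The connexin encoded by Gja1 joins neighbouring cells electrically, and Hcn4 carries the pacemaker current. Atrial and brain natriuretic peptides (Nppa, Nppb) are secreted hormones. In the embryo, Nppa marks the working myocardium of the forming chambers, as distinct from the primary heart tube and the progenitors that feed it, and its promoter is a standard subject for T-box, NKX2-5, GATA and SRF factors.

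Nppa and Nppb lie side by side on mouse chromosome 4, 13.5 kb apart in GRCm38.p6. Bases before the start sites of their promoter entries are shown because Nppa had the largest difference of the 9 genes (RefSeq, GRCm38.p6, plus strand, 5′ to 3′). Another reason is that motifs of cardiac factors named above were matched: T-box, NKX2-5 and GATA in Nppa, and only GATA in Nppb. Nppa is given as the 250 bases before its start, chr4:148000472-148000721, with matches to the T-box half-site (TCACACC), the TCF/LEF core (CTTTGA), the NKX2-5 element (TNAAGTG) and the GATA site (TGATAA or AGATAA) in capitals, on either strand. Nppb is given as the 30 bases around its GATA matches, chr4:147985799-147985828. They lie 101 to 72 bases before the start site of the Nppb promoter entry. The gene coordinates behind the 13.5 kb spacing start Nppb at 147985786, upstream of these bases. By those coordinates the printed Nppb bases lie inside the gene, and the difference between the starts was not resolved.
Nppa: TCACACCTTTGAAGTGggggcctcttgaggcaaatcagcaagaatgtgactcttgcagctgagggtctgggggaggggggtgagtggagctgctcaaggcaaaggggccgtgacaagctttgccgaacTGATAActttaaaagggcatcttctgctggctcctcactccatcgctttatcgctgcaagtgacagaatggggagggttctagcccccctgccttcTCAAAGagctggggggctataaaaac
Nppb: tgcagcTGATAAatcagAGATAAccccacc
The run of capitals at the upstream end of the Nppa sequence holds a T-box half-site, a TCF/LEF core and an NKX2-5 element, each overlapping the next. A further TCF/LEF core, on the other strand, lies close to the start site. Searched over 250 bases before the start, 3.33% of 32851 RefSeq promoter windows held the T-box half-site, 13.8% the TCF/LEF core, 10.1% the NKX2-5 element, 7.94% TGATAA and 9.99% AGATAA. Of the 8 measured genes with a promoter entry, the T-box half-site and the NKX2-5 element were found in Nppa alone, the TCF/LEF core in Nppa and Casq2, TGATAA in 4 (Nppa, Nppb, Pln and Slc8a1) and AGATAA in 4 (Gja1, Nppb, Pln and Slc8a1). The motifs were chosen with the Nppa sequence seen. Their matches in Nppa were therefore known beforehand, and neither the shares nor the other genes test whether Nppa stands out. These 8 genes had 10 windows, since Cacna1c has several. The core of the low-oxygen response element (ACGTG, in 16.6% of windows) was found before Pln and Ryr2 and in only 1 of the Cacna1c windows. It was not found within this window of Nppa or Nppb. No window of the 8 genes held an exact match to the CArG box, the SRF site (1.47% of windows). Only exact matches were counted, so a site that departs from its motif by a letter was missed, and SRF sites are not excluded. Such matches describe the letters and do not show that a factor binds.

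None of the 9 genes passed the test between mutant and wild-type cells (limma over all 18193 genes, Benjamini-Hochberg adjusted p under 0.05), where 12 genes in all (0.0660%) were called, all higher in mutant cells. That count of higher genes depended on single arrays: it was 81 without mutant array 1 (and a further 11 genes were called lower), 4 without wild-type array 1, 2 without wild-type array 3 and 0 without any of the other arrays. No member gene was called in these fits. The differences were not of 1 direction: 5 of the 9 genes had higher means and 4 lower means in mutant cells, with a median log2 difference of 0.08, against −0.03 over all genes. Nppa and Nppb were higher, and Atp2a2 lower, on every mutant array than on every wild-type array. These 3 of 9 genes compare with 17.8% of all genes whose groups did not overlap in either direction, 8.64% with the mutant arrays higher and 9.18% with them lower. Before adjustment, 2 of the 9 genes (Nppa and Cacna1c) had a p under 0.05, against 11.6% of all genes. In bulk samples such as these, fewer cells of a type and less RNA per cell cannot be told apart.

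**Figure D1:**
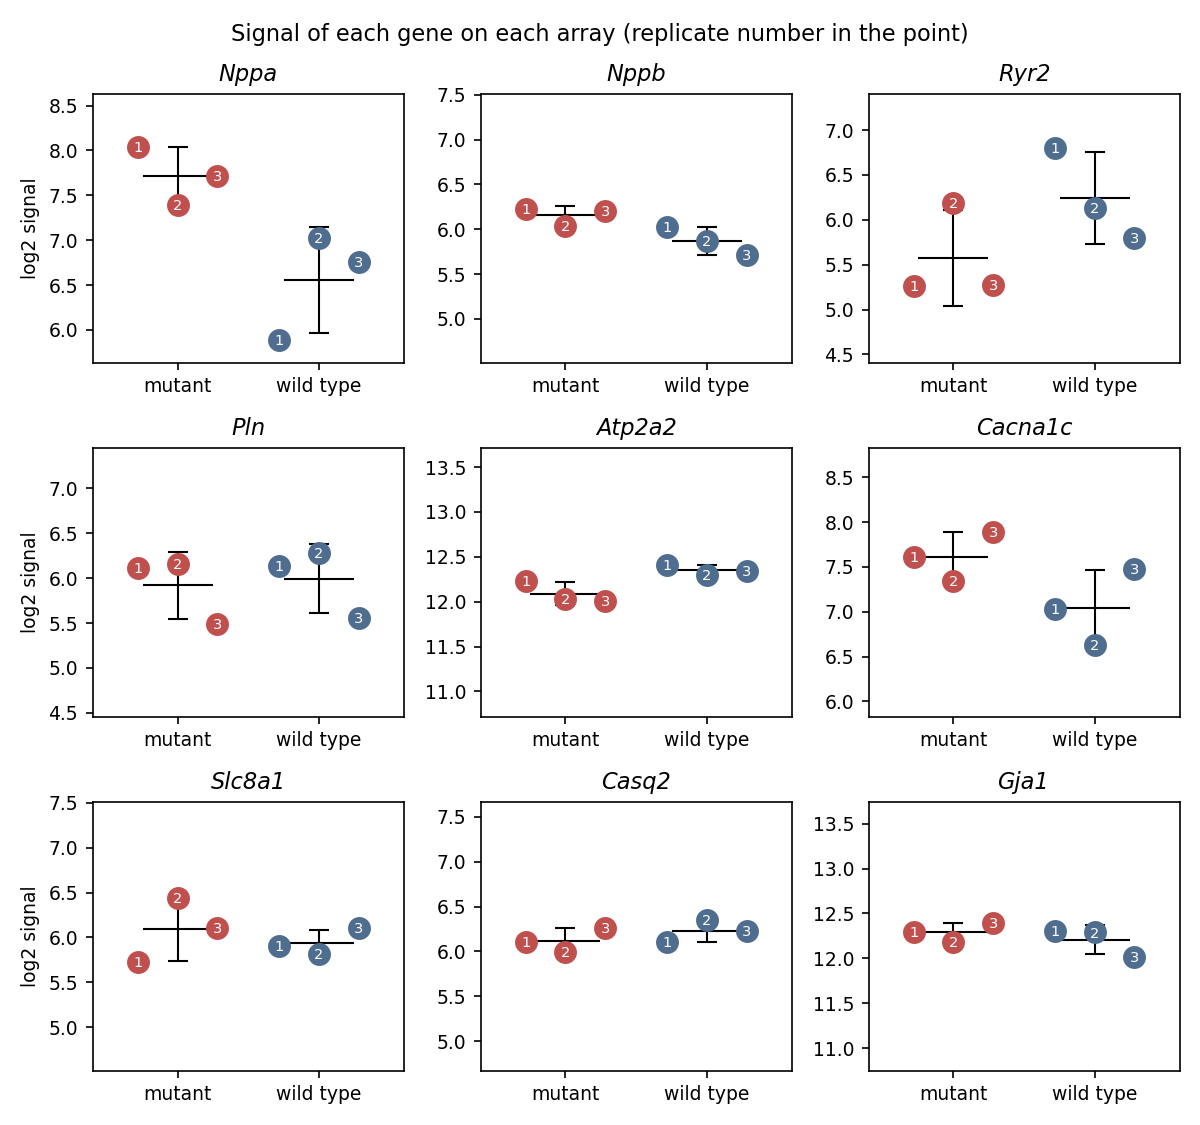
Log2 signal (vertical axis, each panel spanning 3 log2 units) of the 9 measured genes on the 3 mutant arrays (red) and the 3 wild-type arrays (blue), with the replicate number in each point and the mean ± SD in black. The groups are apart for Nppa, Nppb and Atp2a2 and overlap for the other 6 genes.

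Among the natriuretic peptides, Nppa had the largest difference. Its log2 signal was 8.04, 7.39 and 7.71 on mutant arrays 1, 2 and 3, against 5.89, 7.02 and 6.76 on wild-type arrays 1, 2 and 3. All mutant arrays lay above all wild-type arrays, and the lowest value of the 6 was that of wild-type array 1. The means were 7.71 ± 0.32 in mutant and 6.55 ± 0.59 in wild-type cells (SD, n = 3 each), a difference of 1.16 (SE 0.31) or 2.24-fold, with a 95% interval of 1.36- to 3.67-fold. It ranked 133rd from the top of 18193 genes by difference but did not pass (limma, adjusted p = 0.244). Leaving out wild-type array 1 gave 0.83 (adjusted p = 0.334).

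Nppb, the neighbour of Nppa, read 6.22, 6.04 and 6.20 on the mutant arrays, against 6.03, 5.87 and 5.72 on the wild-type arrays. The groups were separate by only the gap between mutant array 2 and wild-type array 1. The difference was 0.28 (SE 0.13), a fold of 1.22 with an interval of 0.979 to 1.51 that includes no change (limma, adjusted p = 0.468). The difference between the responses of Nppa and Nppb was 0.88 log2 units, and 0.46 without wild-type array 1. Taken as Nppa minus Nppb within each array, it was 1.82, 1.35 and 1.51 on the mutant arrays, against −0.14, 1.15 and 1.04 on the wild-type arrays. These sets do not overlap, and the exact two-sided permutation test gave p = 0.1, the smallest that 3 against 3 arrays allow.

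Other cell and state markers moved with these groups, and their part in the Nppa difference was not tested. Genes of glycolysis and the low-oxygen response had higher values in mutant cells for 14 of 14 measured members, 3 of them called (Pfkp by 2.65, Adm by 1.84 and Ndrg1 by 3.46, limma adjusted p from 0.0371 to 0.0489), and their summed signal lay at 15.77 to 16.23 on the mutant arrays, against 15.19 to 15.25 on the wild-type arrays (log2). This list and the others were drawn up with earlier results of these data known. Relative to the mean of the wild-type arrays, the low-oxygen list stood at 0.95, 1.52 and 1.56 on mutant arrays 1, 2 and 3, and Nppa at 1.49, 0.84 and 1.16. A link between the list and Nppa was not tested, and the order of 3 arrays cannot decide it. Endothelial and endocardial markers were higher in mutant cells for 10 of 11 genes, none called. The exception was Nfatc1, at −0.43 with overlapping groups, while Emcn and Tek differed by 0.14 and 0.05. Groups were apart for 7 of the 11 genes (63.6%, against 17.8% of all genes), all higher. The summed signal of the 11 genes was 11.75 to 12.20 on the mutant arrays, against 10.89 to 11.61 on the wild-type arrays. Higher means were found for 5 of 6 neural crest, 1 of 9 neuronal, 2 of 6 smooth muscle and 0 of 7 red cell markers, none called. No low-oxygen or endothelial gene lay at or below background, taken as a log2 signal of 4.85 from 27 bacterial control probe sets, in both groups.

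Sarcomere genes, the structural markers of heart muscle, did not share the direction of Nppa. Of 12 measured, 10 had lower and 2 higher means in mutant cells, and none passed (median log2 difference −0.35). Their summed signal was 13.05 to 13.33 on the mutant arrays, against 13.23 to 13.87 on the wild-type arrays, so the groups overlapped. Cardiac troponin T (Tnnt2) differed by −0.76 and α-actinin 2 (Actn2) by −0.40, both with groups apart (limma, adjusted p = 0.187 and 0.300), and the atrial light chain Myl4 differed by −0.60 (0.371). Groups were apart for 2 of the 12 genes (16.7%, near the 17.8% of all genes). All 12 lay above background in both groups. Globin of embryonic red cells was also present in the sorted cells: Hbb-bh1 read 13.53 to 13.94 on the mutant arrays and 13.77 to 13.94 on the wild-type arrays.

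**Figure D2:**
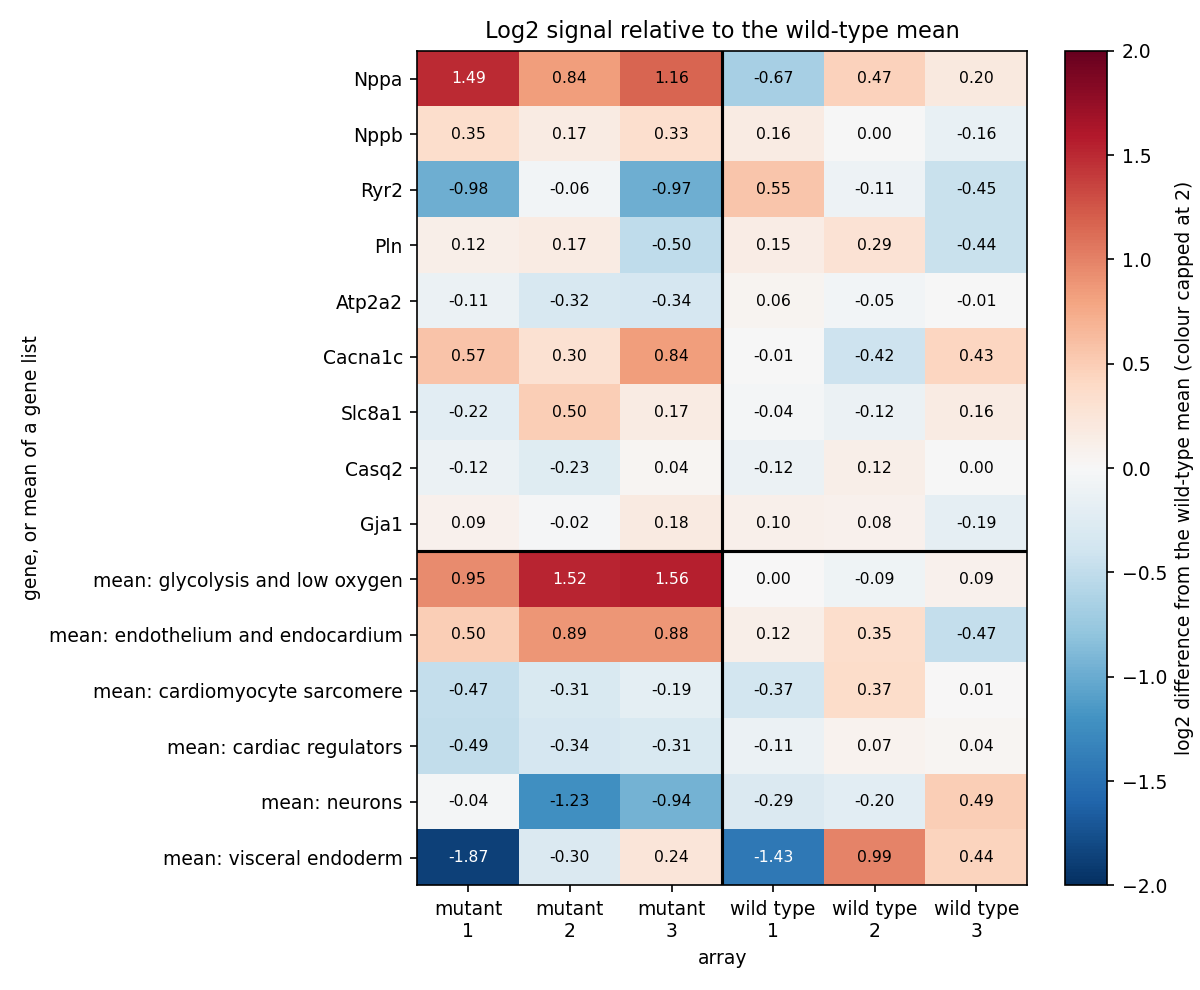
Log2 signal on each array relative to the wild-type mean, with mutant arrays in the left and wild-type arrays in the right columns, for the 9 measured genes (upper block) and the means of 6 gene lists (lower block); colour and number give the same value. Nppa is at 1.49, 0.84 and 1.16 on the mutant arrays, while the sarcomere mean is at −0.47, −0.31 and −0.19.

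Among the 9 genes, Ryr2 had the most negative difference. It encodes the channel through which the store empties. Its brighter probe set read 5.26, 6.19 and 5.27 on the mutant arrays, against 6.80, 6.14 and 5.80 on the wild-type arrays. Mutant arrays 1 and 3 lay below every wild-type array, and mutant array 2 lay within the wild-type range. The difference was −0.67 (SE 0.33), a fold of 0.629 with an interval of 0.369 to 1.07 (limma, adjusted p = 0.481). The other Ryr2 probe set read 4.86, 4.66 and 5.61 on the mutant arrays, against 5.60, 5.82 and 6.17 on the wild-type arrays, a difference of −0.82 (limma over all probe sets, adjusted p = 0.349). In this one mutant array 3 was the high one and just exceeded wild-type array 1.

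The departures of the 2 Ryr2 probe sets fell on different arrays, so that their mean was tighter than either. Averaged, Ryr2 stood at 5.06, 5.42 and 5.44 on the mutant arrays, against 6.20, 5.98 and 5.98 on the wild-type arrays, with no overlap. The difference was −0.75 (SE 0.14) or 0.597-fold, with an interval of 0.473 to 0.752, and the smallest p of the 9 genes in that fit (limma, adjusted p = 0.171). Ryr2 thus did not pass in either form. With 1 probe set per gene, leaving out wild-type array 1 brought the Ryr2 difference to −0.39.

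Atp2a2, the SERCA2 pump, was lower in mutant cells on all 6 of its probe sets. The brightest, which stands for the gene, read 12.23, 12.03 and 12.01 on the mutant arrays, against 12.41, 12.29 and 12.34 on the wild-type arrays. The groups were apart, by a small margin between mutant array 1 and wild-type array 2. The difference was −0.26 (SE 0.12), a fold of 0.836 with an interval of 0.685 to 1.02 (limma, adjusted p = 0.470). Over the 6 probe sets the differences ran from −0.53 to −0.26, and the groups did not overlap on 4, against 9.04% of all probe sets with mutant arrays lower. None passed (limma over all probe sets, adjusted p from 0.365 to 0.489). The 6 probe sets read 1 gene on the same 6 arrays and are not independent of each other, and which isoforms they cover is not given in the sources used here. Their mean differed by −0.41 (SE 0.13), with groups apart (limma, adjusted p = 0.305).

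Phospholamban (Pln), the brake on this pump, had slightly lower means in mutant cells on all 3 of its probe sets, none called and each with overlapping groups. Its brightest probe set read 6.11, 6.16 and 5.49 on the mutant arrays, against 6.14, 6.28 and 5.56 on the wild-type arrays. Replicate 3 was the low one in both groups, as on the probe set that read 5.66, 5.73 and 5.12 on the mutant arrays and 5.87, 5.73 and 5.21 on the wild-type arrays. The remaining Pln probe set did not share this, at 5.05, 5.70 and 5.47 on the mutant arrays, against 5.42, 5.88 and 6.06 on the wild-type arrays, where replicate 3 was the highest. The gene's difference was −0.07 with an interval of −0.66 to 0.52 (limma, adjusted p = 0.928), an interval that reaches from 0.632-fold to 1.43-fold. The 3 Pln probe sets differed by −0.38 to −0.07. Calsequestrin 2 (Casq2) read 6.10, 5.99 and 6.26 on the mutant arrays, against 6.10, 6.35 and 6.22 on the wild-type arrays. Its groups overlapped, with a difference of −0.11 and an interval of −0.42 to 0.21 (limma, adjusted p = 0.780).

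At the cell membrane, the L-type channel gene Cacna1c had higher means in mutant cells. Its brighter probe set read 7.62, 7.34 and 7.89 on the mutant arrays, against 7.03, 6.63 and 7.48 on the wild-type arrays. Wild-type array 3 lay above mutant array 2, so the groups overlapped. The difference was 0.57 (SE 0.24), a fold of 1.48 with an interval of 1.01 to 2.19 (limma, adjusted p = 0.426). The dimmer probe set differed by 0.51, with mutant array 2 the highest at 6.08 and the other mutant arrays at 5.08 and 5.19, against 4.86, 5.23 and 4.75 on the wild-type arrays, and without mutant array 2 it was 0.19. As for Ryr2, the mean of both probe sets kept the groups apart, at 6.35, 6.71 and 6.54 on the mutant arrays, against 5.95, 5.93 and 6.11 on the wild-type arrays, a difference of 0.54 (SE 0.13; limma, adjusted p = 0.200). With 1 probe set per gene the value was 0.36 without wild-type array 2.

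The exchanger Slc8a1 was measured near background. Of its 4 probe sets 3 had means at or below the background level in both groups, and their differences of −0.39 to −0.18 are differences of signal at that level. The remaining probe set read 5.72, 6.44 and 6.11 on the mutant arrays, against 5.90, 5.82 and 6.10 on the wild-type arrays. Mutant array 1 was below and mutant array 2 above the wild-type range, and the difference of 0.15 had an interval of −0.31 to 0.61 (limma, adjusted p = 0.789).

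Gja1, the main connexin of working heart muscle, differed by little between the groups on each of its probe sets. It read 12.30, 12.19 and 12.39 on the mutant arrays, against 12.31, 12.29 and 12.02 on the wild-type arrays. Only wild-type array 3 stood below the others. The difference was 0.08 with an interval of −0.23 to 0.40, that is between 0.851- and 1.32-fold (limma, adjusted p = 0.830). The 6 Gja1 probe sets differed by −0.05 to 0.17, 5 higher and 1 lower, and 4 of them carry the suffix by which the maker marks possible cross-hybridisation. On 1 of the 6 the groups were apart (12.19, 12.29 and 12.22 on the mutant arrays, against 12.16, 11.97 and 12.06 on the wild-type arrays).

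**Figure D3:**
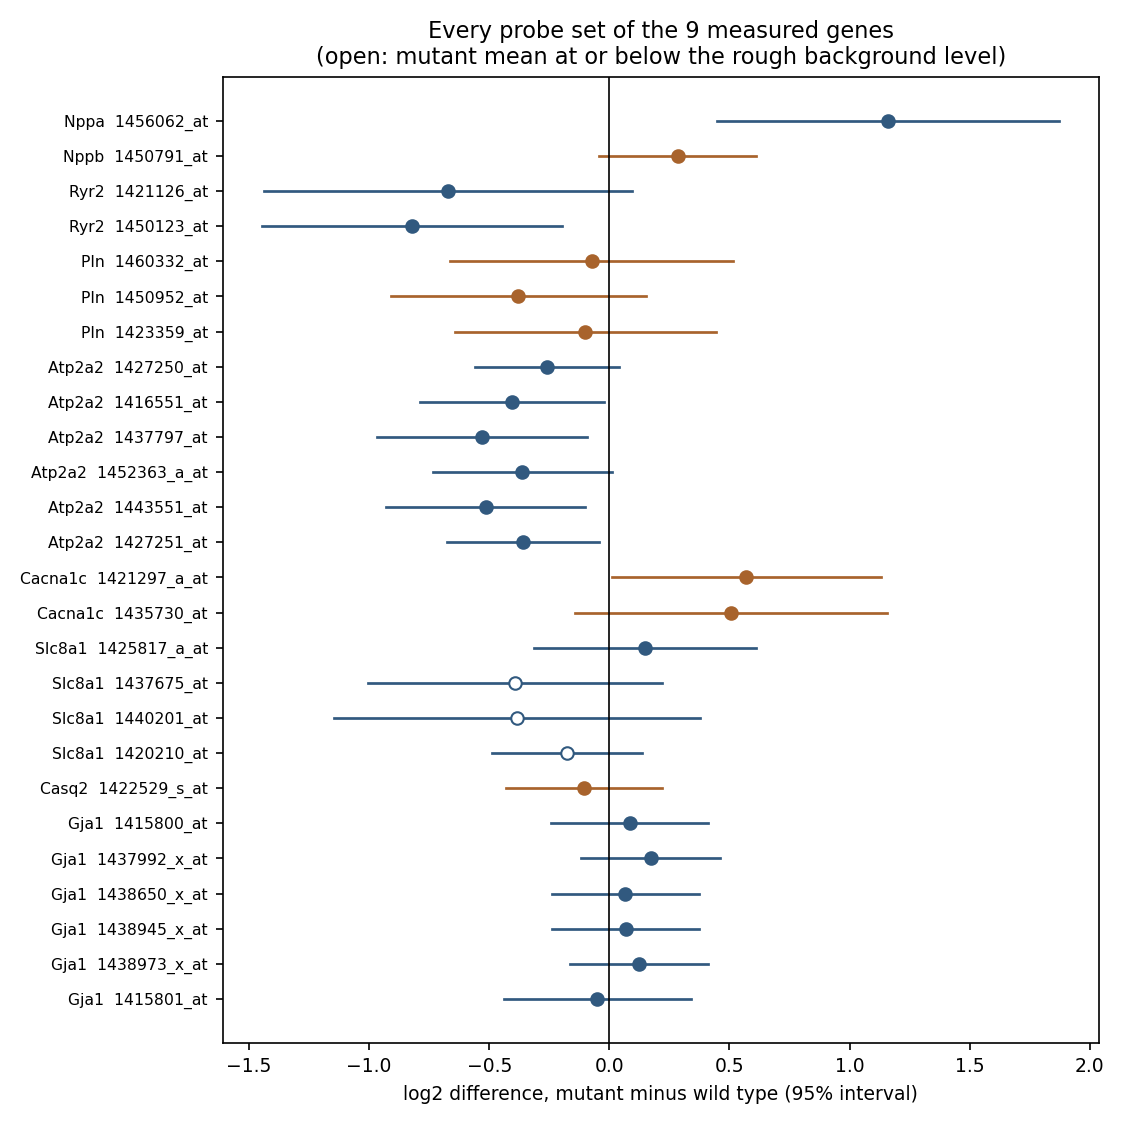
Log2 difference (mutant minus wild type, horizontal axis) with its 95% interval for each of the 26 probe sets, brightest first within each gene; neighbouring genes alternate in colour, and open points have a mutant mean at or below background. All 6 Atp2a2 and both Ryr2 probe sets lie left of 0, both Cacna1c probe sets and Nppa right of it, and the Gja1 probe sets lie around 0.

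Across the 26 probe sets, 16 had lower and 10 higher means in mutant cells, and 7 had groups that did not overlap (26.9%, against 17.5% of all single-gene probe sets): 3 with mutant arrays higher (8.45% of all) and 4 lower. None passed, against 8 of all probe sets (0.0229%). With the mean of a gene's probe sets in place of the brightest one, 5 of the 9 genes had groups that did not overlap (Nppa, Nppb and Cacna1c higher, Ryr2 and Atp2a2 lower), against 18.6% of all genes, and again none passed, against 0.00550% of all genes.

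The wider pathways showed the same absence of a common direction. Of 63 measured genes in 6 companion lists, 31 had higher and 32 lower means in mutant cells, none passed, and 13 had groups that did not overlap (20.6%, near the 17.8% of all genes); their median difference was 0.00. Among genes that process, clear or receive natriuretic peptides, none of 7 had groups apart: C-type natriuretic peptide (Nppc) differed by −0.30, the peptide-degrading enzyme neprilysin (Mme) by 0.23 and the clearance receptor Npr3 by 0.18 (limma, adjusted p from 0.589 to 0.713).

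Among 14 genes of calcium release and storage, 7 had higher and 7 lower means. Asph, whose locus also encodes junctin, a partner of the ryanodine receptor, read 10.37, 10.99 and 10.48 on the mutant arrays, against 9.98, 9.81 and 10.04 on the wild-type arrays (0.67; limma, adjusted p = 0.264). Casq1, the calsequestrin of skeletal muscle, read 6.93, 6.35 and 6.98 on the mutant arrays, against 7.60, 7.94 and 7.10 on the wild-type arrays (−0.79, adjusted p = 0.331), and the inositol trisphosphate receptor Itpr2 differed by 0.65 (adjusted p = 0.379). All 3 had groups apart, and they were named for the smallest p in the list. In the whole list 5 of 14 genes had groups apart (35.7%, against 17.8% of all genes), 3 higher and 2 lower. Without mutant array 2 the Itpr2 value was 0.41. Among 11 pump genes and regulators, the plasma membrane calcium pump Atp2b4 had, over all 6 arrays, the largest difference of the 63 genes: it read 6.42, 6.48 and 6.46 on the mutant arrays, against 4.01, 5.79 and 5.50 on the wild-type arrays (1.35; limma, adjusted p = 0.314). Wild-type array 1, the low one for Nppa, was also the low one here and lay below background, and without it the Atp2b4 difference was 0.81. Camk2g, a calcium/calmodulin-dependent kinase, differed by 0.33 and Prkaca, a catalytic subunit of protein kinase A, by −0.34, with overlapping groups.

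Among 10 genes of calcium entry and exchange, the accessory channel subunit Cacna2d2 had the smallest p of the companion lists. It read 9.21, 9.20 and 9.50 on the mutant arrays, against 10.05, 9.84 and 10.19 on the wild-type arrays, with groups clearly apart. No other gene of these 10 had groups apart (10%, against 17.8% of all genes). The Cacna2d2 difference was −0.72 (SE 0.15), a fold of 0.607 (limma, adjusted p = 0.189), opposite in sign to that of the pore gene Cacna1c. The T-type channel Cacna1g and the exchanger Slc8a3 differed by 0.30 each. Among 10 pacemaker, sodium and potassium channel genes, 2 had groups apart (20%, near the 17.8% of all genes). Both were lower in mutant cells, as were 9.18% of all genes: Hcn3, a relative of Hcn4, by −0.41 (5.05, 4.96 and 5.13 on the mutant arrays, against 5.64, 5.40 and 5.33 on the wild-type arrays, limma adjusted p = 0.335) and Kcne1 by −0.33 (adjusted p = 0.384). Hcn3 was close to background. For Kcne1 the mutant mean of 4.70 lay below the background level of 4.85, and the wild-type mean of 5.03 just above it. Kcnh2, a potassium channel of repolarisation, differed by −0.70 with overlapping groups, and by −1.20 to −0.44 with 1 wild-type array left out.

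Among 11 connexins and junction partners, Gja5, a connexin of atria and the fast conduction system, read 5.47, 5.44 and 5.29 on the mutant arrays, against 6.06, 5.90 and 5.85 on the wild-type arrays. The groups were apart, with a difference of −0.53 (SE 0.13; limma, adjusted p = 0.228). The epithelial connexin Gjb2 differed by 0.53 and the desmosomal plakophilin Pkp2 by 0.58, both with groups apart and neither called (adjusted p = 0.326 and 0.362). In this list 4 of 11 genes had groups apart (36.4%, against 17.8% of all genes), 2 higher and 2 lower. Without mutant array 3 the Pkp2 value was 0.36.

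**Figure D4:**
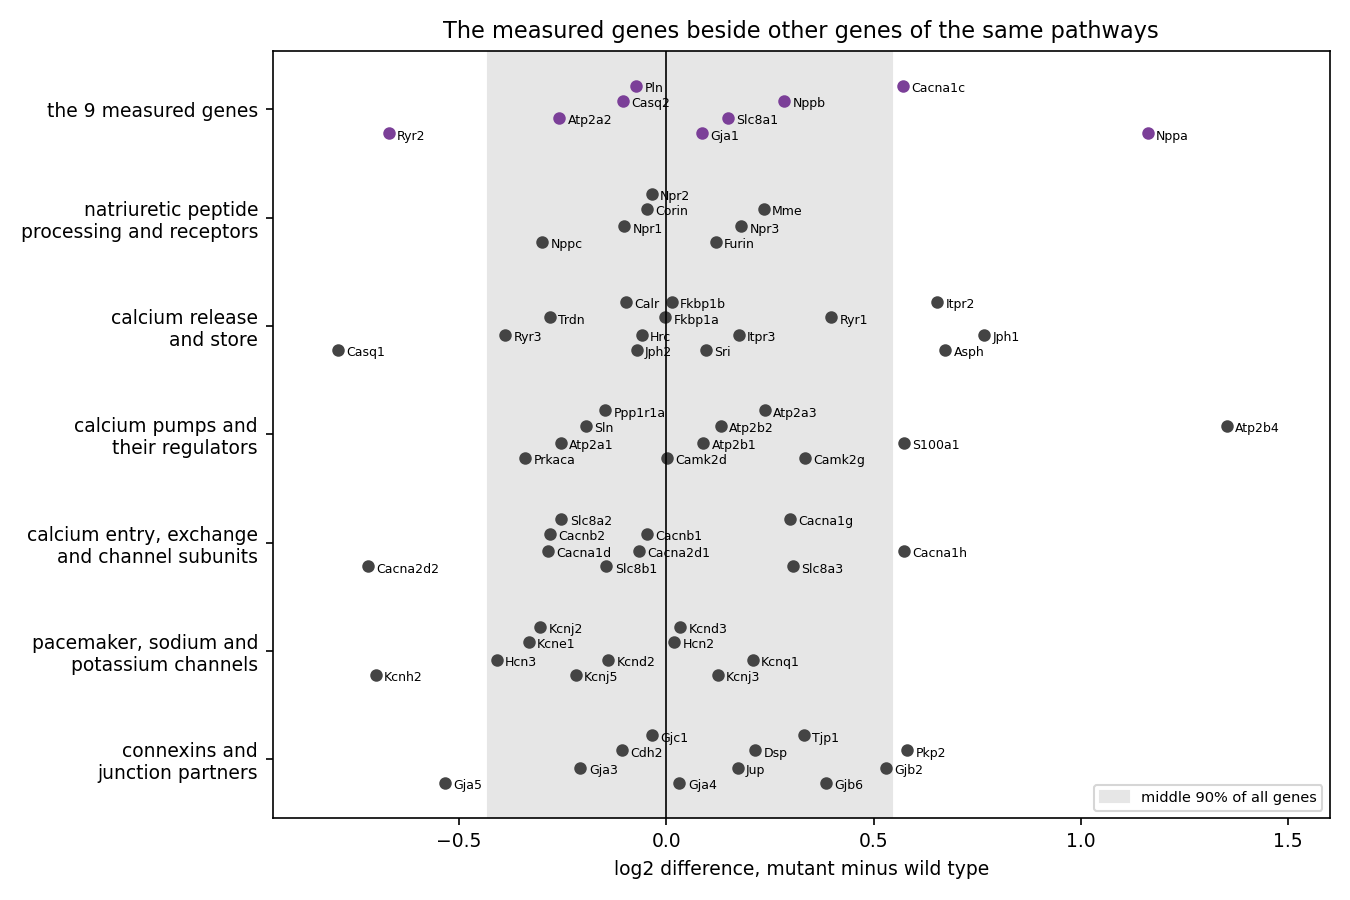
Log2 difference (mutant minus wild type, horizontal axis) of the 9 measured genes (top row, purple) and of 63 other genes in 6 lists (rows below, grey); vertical scatter within a row only separates the labels, and the shaded band holds the middle 90% of all genes, from −0.43 to 0.54. Nppa, Cacna1c and Ryr2 lie outside the band, as do 11 of the 63 other genes, 7 above it (Atp2b4 farthest) and 4 below it (Casq1 farthest).

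The Y-linked genes were high on wild-type array 1 and on all mutant arrays (summed log2 signal 10.10 to 11.19 on the mutant arrays, against 11.23 on wild-type array 1 and 5.10 or less on the other wild-type arrays), and their part in the differences was not tested beyond the fit that follows. Visceral endoderm markers were low on mutant array 1 and wild-type array 1 (summed log2 signal 8.74, 10.46 and 11.21 on the mutant arrays, against 8.90, 12.44 and 12.08 on the wild-type arrays), and their part was not tested. With the Y-linked mean as a covariate the Nppa difference was 1.76 (limma, adjusted p = 0.164), that of Ryr2 −1.21 and that of Nppb 0.17, and none of the 9 genes was called. That fit rests largely on wild-type array 1, the only wild-type array high in Y-linked genes, so it cannot set their part apart from that array. Without wild-type array 1 and without the covariate, the differences were 0.83 for Nppa, −0.39 for Ryr2 and 0.36 for Nppb. Over the alternatives run, 5 of the 9 genes (Nppa, Nppb, Ryr2, Atp2a2 and Cacna1c) kept the sign of their difference in each that gave them a value, while Pln, Slc8a1, Casq2 and Gja1 changed sign in at least 1.

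**Figure D5:**
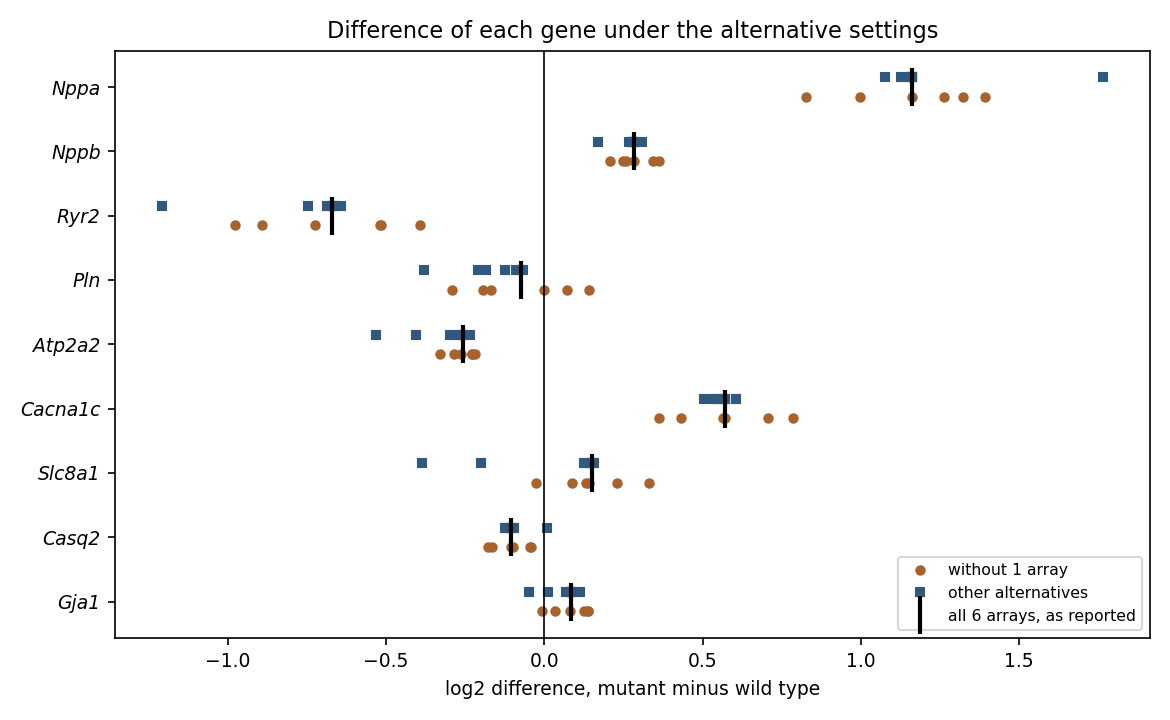
Log2 difference (mutant minus wild type, horizontal axis) of each of the 9 genes as reported (black bar), with each array left out in turn (brown points) and under the other alternatives (blue squares). Nppa stays between 0.83 and 1.76 and Ryr2 between −1.21 and −0.39, while Pln, Slc8a1, Casq2 and Gja1 have values on both sides of 0.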

How the data were processed

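Affymetrix arrays of amplified RNA (WT-Ovation Pico kit, per the labels' protocols) were used as deposited: log2 values for 45101 probe sets on 6 arrays, whose medians lay between 6.47 and 6.50. The deposited log2 values appear aligned between arrays (largest SD at a rank 0.07); for background correction, summarisation, normalization and genome build, the method is not given in the sources used here. Symbols came from GEO's platform annotation, updated by gene ID from a RefSeq table (34741 of 34945 probe sets matched). A gene was read from its brightest probe set by overall mean. Groups were compared by limma's lmFit and eBayes (version 3.58.1, R 4.3.3; two-sided, with no covariate; Benjamini-Hochberg over all 18193 genes or all 34945 probe sets). No dim gene was removed; background is the 95th percentile of the means of 27 Bacillus control probe sets. The fit was tested on simulated data. Genes, lists, motifs and tests were chosen with earlier results of these data known, the motifs also with the Nppa sequence seen. Named genes are the measured members and, in each list, the 3 with the smallest p. A few further marker genes are named only to show how the members of a list differed. Alternatives were a replicate block, 2 scalings, a filter, 2 choices of probe set, another prior, array weights, a Y-linked covariate, a stricter threshold (0.01) and each array left out in turn. The number of arrays limits the precision.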

Additional observations from a re-analysis of the deposited data

How the results depend on the processing

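No member gene was called under any of the 16 alternatives, nor were their probe-set means or the named companion genes with 1 array left out, a setting added for these after seeing the data, and none of the member differences that changed sign had been called. Slc8a1 turned to −0.39 with the most variable probe set and −0.20 with the mean of its probe sets, Gja1 to −0.0498 with the most variable probe set, and Casq2 to 0.0095 with the Y-linked covariate, as did 3 further Gja1 probe sets (−0.0563, −0.0640 and 0.138). Leaving out each array in turn gave −0.29 to 0.14 for Pln (a further Pln probe set −0.30 to 0.0916), −0.0254 to 0.33 for Slc8a1 and −0.0087 to 0.14 for Gja1 (a further Gja1 probe set −0.14 to 0.0729). Leaving out the dimmest 40% of genes kept 4 members (Nppa, Atp2a2, Cacna1c and Gja1), and the most variable probe set gave −0.53 for Atp2a2. Over all genes, 12 higher and 0 lower calls became 0 higher with the replicate block, 6 with median centring, 1 each with the most variable and the mean probe set and with the Y-linked covariate, and 0 at the threshold of 0.01. They ranged from 0 to 81 higher and 0 to 11 lower with 1 array left out, the highest of both without mutant replicate 1. Replicate numbers did not pair the arrays (correlation of same-numbered deviations 0.11, −0.08 and −0.02), and with the replicate block the adjusted p was 0.338 for Nppa and 0.294 for Cacna1c. The cause of these changes was not tested.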

Other observations

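Genes on either side of the Nppa and Nppb pair on chromosome 4 were measured for 5 of 6 listed. Plod1, a collagen lysyl hydroxylase upstream of Nppb, read 7.87, 7.81 and 8.20 on the mutant arrays, against 7.37, 7.71 and 7.79 on the wild-type arrays. Its groups were apart, with a difference of 0.34 that did not pass (limma, adjusted p = 0.490). This held for 1 of the 5 neighbours (20%, near the 17.8% of all genes). Miip and Agtrap differed by 0.21 and 0.24 with overlapping groups. The difference of Nppa was thus larger than that of each measured neighbour, Nppb included, though these contrasts between genes were tested only for Nppb.

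Among 17 measured transcription factors and cofactors of heart development, 11 had lower and 6 higher means in mutant cells, and none passed (median log2 difference −0.29). Smyd1, a muscle histone methyltransferase, Myocd, the coactivator myocardin, and the T-box factor Tbx20 differed by −1.40, −1.40 and −0.94, each with groups apart (limma, adjusted p = 0.0881, 0.131 and 0.220). In this list 6 of 17 genes had groups apart (35.3%, against 17.8% of all genes). Of these, 5 were lower and 1 higher in mutant cells, against 9.18% and 8.64% of all genes.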
